A study of Drosophila melanogaster with 4 samples.

Results

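The CTLH complex is a ubiquitin ligase, and 5 of its subunit genes were followed here through ribosome footprint libraries from Drosophila melanogaster ovaries. The members were taken from a list of names: muskelin, RanBPM, CG31357 (now Kaz), CG3295 (now Sou) and CG7611. All 5 were found among 17438 genes and joint loci by the coordinates of their transcripts, and all 5 passed the filter on low counts that left 7785 genes. Each gene is represented by its transcript of highest mean count. The members were chosen by name with the log2 fold changes between these same mutant and wildtype libraries already known, and muskelin was singled out on that value. The members' differences between the genotypes are therefore given as a description, with standard errors but no p-values. The comparison lists were also chosen with earlier results of these data known, so the adjusted p-values printed for their genes are descriptive only.

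The CTLH ligase attaches ubiquitin to its targets and marks them for degradation. It is a large assembly in which RanBPM and proteins like it form the scaffold and a pair of RING-type subunits carry the ligase activity. In Drosophila it is known for its work at the maternal-to-zygotic transition, when the early embryo clears the RNA-binding proteins ME31B, Trailer hitch (tral) and Cup that the mother loaded into the egg. The PNG kinase, which acts at egg activation, is known to set off this clearance. The mRNAs of the ligase itself are made in the ovary beforehand.

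Of the 4 libraries, 2 came from wildtype and 2 from RpS5b mutant ovaries, dissected 48 hours after eclosion. RpS5b encodes one of the paralogs of the small-subunit protein S5. The labels name neither the allele nor the background strain, and they do not say that replicates came from separate animals, so the spread between them may be technical. Per the labels, stage 10 to 14 chambers had been picked out of the control ovaries. A difference in dissection between the groups cannot be told apart from that of genotype. A footprint is a stretch of mRNA shielded by a ribosome, so a count reflects both the mRNA present and its occupancy. In bulk ovary tissue, fewer cells of a type and less RNA per cell cannot be told apart.

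Library totals lay between 3122299 and 13942184 reads, and between 29.37% and 37.51% of the counts fell on protein-coding genes. RpS5b itself was low where the labels say it is mutated, with 10 and 9 counts there and 287 and 342 counts in wildtype ovaries. CPM is the count of a gene scaled to the size of its library, with TMM factors. Germline marker genes, 8 in all, summed to between 543.1 and 559.3 CPM in wildtype and between 491.0 and 551.5 CPM in mutant libraries. Neuron markers, a tissue that should be nearly absent, summed to at most 2.64 CPM, with Syt1 and brp at 0 in every library.

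Muskelin was the member that differed most. It is a kelch-repeat subunit that in flies is needed for the ligase to clear its maternal targets. Its transcript FBtr0087885, 2782 nt in 11 exons, lies on the minus strand of chromosome 2R at 12628967 to 12632378 of build BDGP6. It had 424 and 677 counts in wildtype ovaries, compared with 116 and 94 in mutant ovaries, although the mutant libraries were the deeper ones. In CPM this was 137.3 and 125.0 against 9.02 and 10.8. Both mutant libraries lay far below both wildtype libraries, with no overlap. The means were 131 ± 8.73 and 9.91 ± 1.25 CPM (SD, n = 2 each). The fitted log2 fold change was -3.73 (SE 0.16), or 13.3-fold lower in the mutant. Of the 7785 genes tested, only 37 had a more negative log2 fold change.

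RanBPM, the scaffold subunit, differed less. It is counted over FBtr0100460 on chromosome 2R at 10429712 to 10436581, plus strand, 4372 nt in 12 exons. Its CPM was 83.6 and 77.9 in wildtype ovaries, compared with 45.3 and 41.0 in mutant ovaries. The groups did not overlap, and the log2 fold change was -0.90 (SE 0.13), a 1.87-fold lower level in the mutant.

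The RING-type pair lay closer to the wildtype level in the fit of all 4 libraries, but for Sou this depended on the library left out. Kaz, counted over FBtr0084735 on chromosome 3R at 24828279 to 24829959, minus strand, is a gene of 1 exon. It stood at 45.7 and 48.7 CPM in wildtype ovaries, compared with 34.9 and 37.0 in mutant ovaries, a log2 fold change of -0.40 (SE 0.13). Sou, counted over FBtr0071547 on chromosome 2R at 21015594 to 21017446, minus strand, also has 1 exon and had the fewest counts of the members in both wildtype libraries, while muskelin had the fewest in both mutant ones. Its wildtype libraries stood apart from each other at 20.7 and 29.7 CPM, and both lay above the mutant values of 15.1 and 16.9. The log2 fold change of Sou was -0.70 (SE 0.18). Without wildtype replicate 2, the higher of its wildtype values, it was -0.39. Without wildtype replicate 1 the value for Sou was -0.90, and that for RanBPM was -0.85.

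CG7611 went the other way. RefSeq lists WDR26 as its synonym, the name of a WD40-repeat subunit of the human complex. It is counted over FBtr0301197 on chromosome 3L at 21523186 to 21528163, plus strand. It had 34.3 and 38.0 CPM in wildtype ovaries, compared with 46.0 and 45.9 in mutant ovaries. The mutant values were the higher ones and the groups did not overlap, but the difference was small, with a log2 fold change of 0.34 (SE 0.13) that did not pass the threshold of the fit.

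**Figure D1:**
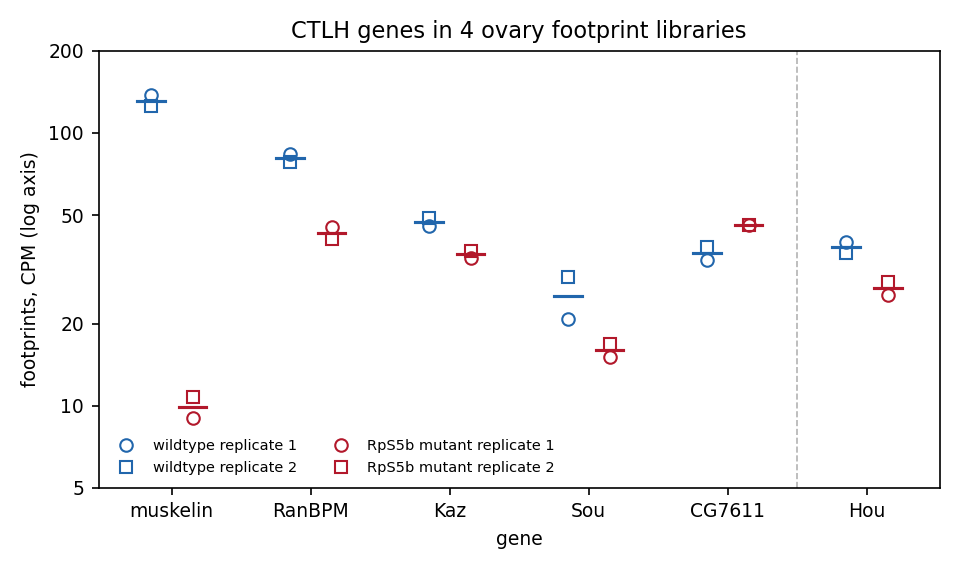
Footprint level of each gene in CPM on a log axis, with a symbol for each library and a horizontal line at each group's mean; the gene right of the dashed line, Hou, is a further subunit of the complex. Muskelin falls from a mean of 131 CPM to a mean of 9.91 CPM, while the other genes stay within a 1.87-fold difference between the group means of the fit. CPM is not scaled to transcript length, so levels of different genes are not compared here.

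In the fit across all genes, edgeR's quasi-likelihood test with Benjamini-Hochberg adjustment at 0.05, 4 of the 5 members were called lower and 0 higher. The same test called 41.3% of all 7785 genes, 20.9% lower and 20.4% higher. CPM did not overlap between the groups for 5 of the 5 members and for 71.8% of all genes. The rule used this contrast, so nothing is read from these counts. The calls of muskelin and RanBPM held without any 1 library. That of Kaz was lost with each library left out, at log2 fold changes between -0.44 and -0.35. That of Sou was lost without wildtype replicate 2 or mutant replicate 1, at -0.39 and -0.64. Leaving out wildtype replicate 2 or mutant replicate 1 thus left 2 members called, and leaving out either other library left 3.

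The ratio of muskelin to another subunit within a library does not depend on how libraries are scaled, and it turned over between the genotypes. For every 100 RanBPM counts there were 164 and 160 muskelin counts in wildtype ovaries, compared with 19.9 and 26.3 in mutant ovaries. Against 100 Kaz counts the values were 301 and 256 in wildtype ovaries, compared with 25.8 and 29.2 in the mutant. Muskelin thus had more counts than each of these subunits in both wildtype libraries and fewer in both mutant libraries. Against 100 Sou counts there were 662.5 and 420.5 muskelin counts in wildtype ovaries, and 59.8 and 63.9 in the mutant. Against CG7611, the subunit that stood higher in the mutant, the ratio moved furthest, from 400.0 and 329 per 100 counts to 19.6 and 23.5. As mean log2 ratios, muskelin changed by -2.83 against RanBPM, -3.09 against Sou, -3.34 against Kaz and -4.08 against CG7611, which are 7.09-fold, 8.54-fold, 10.1-fold and 16.9-fold shifts. No test is given for these differences, since muskelin was singled out on them.

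Seen as a share of the counts of the 5 genes, muskelin made up 42.7% in wildtype replicate 1 (exact binomial 95% interval 39.6% to 45.8%) and 39.1% in wildtype replicate 2 (36.8% to 41.5%). In the mutant libraries it made up 6.0% (4.99% to 7.16%) and 7.12% (5.79% to 8.64%). The intervals cover counting error only, as reads without molecular identifiers need not be separate molecules. The share of CG7611 was the one that grew most, from 10.7% and 11.9% in wildtype to 30.6% and 30.3% in mutant ovaries. Shares of a sum also rise when another part falls, so a larger share is not a higher level. Kaz rose from 14.2% and 15.3% to 23.2% and 24.4%, while its mean CPM was 47.2 in wildtype and 35.9 in mutant ovaries. The mean CPM of CG7611 was 36.2 and 45.9. RanBPM kept a similar share throughout, between 24.4% and 30.1%. Summed over the 5 genes, the level was 320.5 ± 1.6 CPM in wildtype ovaries, compared with 151 ± 0.89 in the mutant (SD, n = 2 each). Without muskelin the other 4 summed to 189 ± 7.14 and 141.0 ± 0.36 CPM, a 1.34-fold difference of the means against 2.12-fold with it.

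**Figure D2:**
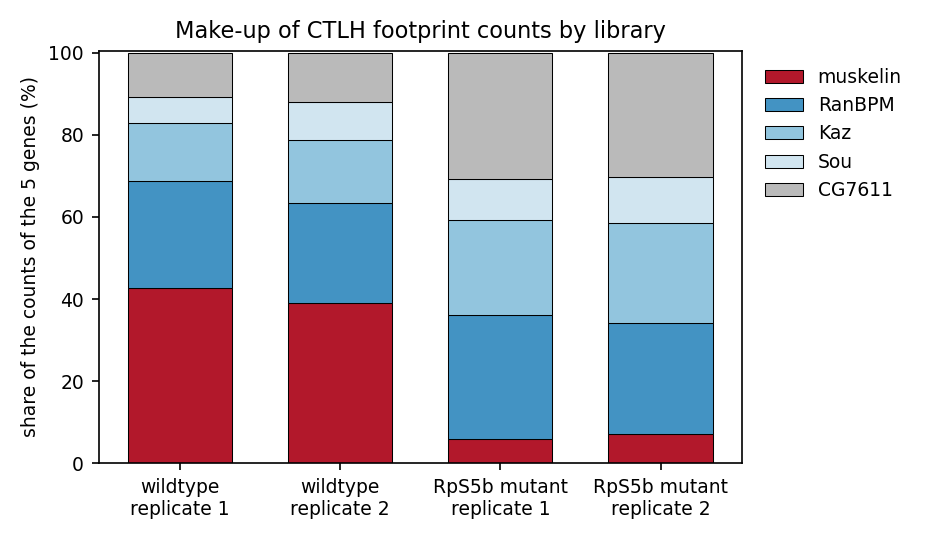
Share of each gene in the footprint counts of the 5 CTLH genes, as stacked bars from 0 to 100% for each of the 4 libraries. Muskelin takes 42.7% and 39.1% of the wildtype bars and 6.0% and 7.12% of the mutant bars. The share of CG7611 grows from 10.7% and 11.9% to 30.6% and 30.3%, and shares also rise when another part falls.

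Levels of different genes can be compared only per transcript length, and for this the deposited RPKM was used. It scales to all reads of a library, transfer RNA included, and counts untranslated regions as length. In the wildtype, muskelin had the highest level, 48.8 and 39.4 RPKM. Kaz followed at 26.9 and 25.5, then RanBPM at 18.9 and 15.6, Sou at 11.1 and 14.1 and CG7611 at 7.61 and 7.48. On the transcripts that represent the genes, no neighbours in this order overlapped over the 2 libraries. In the mutant, Kaz led with 19.2 and 22.0 RPKM and muskelin came last with 2.99 and 3.88, below both values of Sou at 7.51 and 9.10. In between, CG7611 at 9.50 and 10.3 and RanBPM at 9.55 and 9.37 overlapped and did not differ beyond their spread on these transcripts. The level of CG7611 beside Sou and RanBPM depends on the transcript chosen, as given below. Muskelin went from the first to the last of the 5, and CG7611 was no longer the last.

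**Figure D3:**
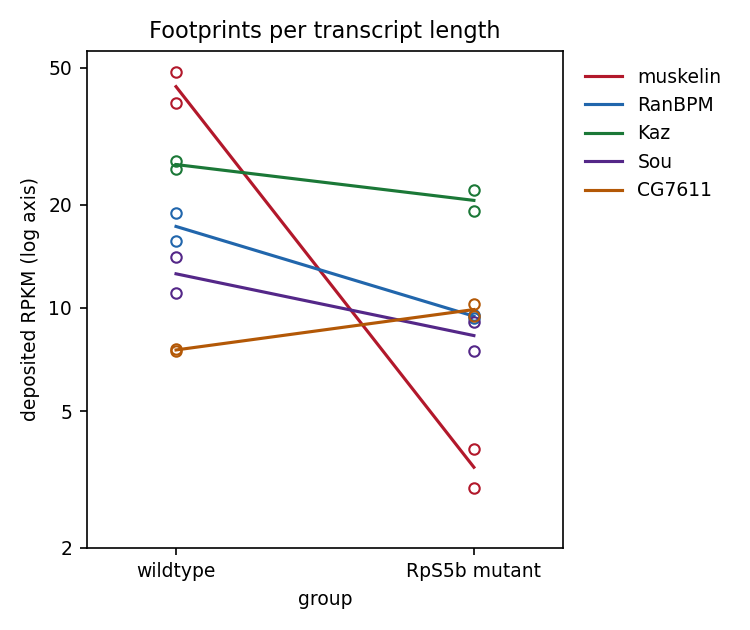
Deposited RPKM on a log axis for the 5 genes, with open circles for the libraries and lines joining the group means of wildtype and RpS5b mutant. The muskelin line crosses all the others, from a mean of 44.1 to a mean of 3.43 RPKM, and CG7611 is the only line that rises, from 7.54 to 9.89.

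Muskelin and RanBPM kept their pattern in each of their annotated transcripts, which share most of their reads. The 3 muskelin transcripts, between 2782 and 3018 nt long, had between 418 and 424 counts in wildtype replicate 1 and between 112 and 116 in mutant replicate 1. The 6 RanBPM transcripts had between 256 and 258, and between 572 and 582, counts in the same libraries, of which the mutant one was the deeper. Scaled to length and library size, they gave between 18.9 and 22.7 RPKM in wildtype replicate 1. In mutant replicate 1 they gave between 9.55 and 11.3 RPKM. For CG7611 the choice of transcript matters to the level: its 9 transcripts run from 2972 to 4464 nt, and in wildtype replicate 1 they give between 7.61 and 11.3 RPKM. On its shortest transcript CG7611 had 11.3 and 11.2 RPKM in wildtype, within the range of Sou at 11.1 and 14.1. In the mutant that transcript had 13.9 and 15.1 RPKM, above the shortest RanBPM transcript at 11.3 and 11.1. With the shortest transcript of each gene, a choice made after the data were seen, the place of muskelin was still at the top in wildtype and at the bottom in mutant ovaries. The transcripts that represent muskelin, RanBPM and CG7611 overlap the representing transcript of no other gene. Their other transcripts were not checked for this. Sou shares 35 nt with CG9346 on the other strand, which had 45 and 107 counts in wildtype ovaries and, at 278 and 207, more than Sou in both mutant libraries. Kaz shares 131 nt with RabX4, which had at most 1 count in a library.

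The genes beside muskelin on the chromosome differed less than muskelin, which was singled out on its difference. Of the 3 tested genes on either side, log2 fold changes lay between -0.64 (Iswi, the only one called lower) and 0.81 (the joint locus Mvk/CG33672, called higher), and the other 4 did not pass. Beside RanBPM, 4 of the 6 neighbours were called lower and 1 higher, between -1.34 and 0.91, and the 4 lower ones (CG12896, Prx6b, CG11825 and Caf1-105, at -1.34, -1.33, -1.12 and -1.29) were each below RanBPM itself. Of the 6 neighbours of each other member, 1 was lower and 1 higher beside Kaz, 1 lower and 0 higher beside CG7611, and 0 lower and 2 higher beside Sou.

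Hou (CG6617), another subunit of the complex, was not on the list of members. It had 39.8 and 36.2 CPM in wildtype ovaries, compared with 25.5 and 28.4 in mutant ovaries. It was lower without overlap, at -0.49 on the log2 scale (SE 0.14, edgeR adjusted p = 0.0241), a value between those of Sou and Kaz. That call was lost without wildtype replicate 1 (-0.43, edgeR adjusted p = 0.0726) or mutant replicate 1 (-0.44, adjusted p = 0.104). Hou shares 94 nt with Nup35 on the other strand.

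E2 enzymes, which pass ubiquitin on to ligases of many kinds, were called lower more often than higher. Of 24 genes listed, 17 were measured, of which 8 were lower, 1 was higher and 8 did not pass, with a median log2 fold change of -0.24 against 0.031 for all genes, of which 20.9% were lower and 20.4% higher. The E2 gene CG8188 was at -2.20 (SE 0.21, edgeR adjusted p = 3.09e-04) and vih, an E2 enzyme of the anaphase-promoting complex, at -1.28 (SE 0.16, adjusted p = 8.79e-04). CG7220 was the 1 that rose, with mean CPM of 11.2 and 27.4 and a difference of 1.28 on the log2 scale (SE 0.14, edgeR adjusted p = 4.88e-04). The abundant E2 gene eff had 104 CPM in wildtype ovaries, compared with 102 in the mutant, at -0.026 (SE 0.13, edgeR adjusted p = 0.897), and 0.029 with scaling by total counts.

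The 3 known targets of the ligase were lower in mutant ovaries, by about as much as RanBPM. All 3 were called lower, against 20.9% of all genes. ME31B is an RNA helicase of the repressed maternal mRNA particle, and me31B had 1561 and 1537 CPM in wildtype ovaries, compared with 793.5 and 930.0 in mutant ovaries. The values of tral, which encodes a partner of ME31B, were 2115 and 1765 against 973.1 and 962.7. The locus cup/CG34310, a joint locus that holds the gene of the eIF4E-binding repressor Cup, had 657.8 and 607.1 CPM in wildtype ovaries, compared with 302.3 and 349.0 in the mutant. None of the 3 overlapped between the groups, as was so for 71.8% of all genes tested, and for 34.3% of all with the mutant lower. Their log2 fold changes were -0.85 (SE 0.20), -1.003 (SE 0.21) and -0.96 (SE 0.18), with edgeR adjusted p-values of 0.0128, 0.00756 and 0.00433. Without mutant replicate 1 the calls of me31B (-0.76, edgeR adjusted p = 0.14) and tral (-1.03, adjusted p = 0.0656) were lost. Both were also lost without mutant replicate 2, at -0.96 (edgeR adjusted p = 0.0546) and -0.99 (adjusted p = 0.063).

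Of 9 genes whose products work in the same repressor particles, 5 were lower, 0 were higher and 4 did not pass, with a median of -0.46, where 20.9% of all genes tested were lower and 20.4% higher. The RNA-binding protein locus CG45084/BicC was at -1.16 (SE 0.17, edgeR adjusted p = 0.0018) and Edc3, a decapping factor, at -0.90 (SE 0.13, adjusted p = 0.0018). The repressor gene bru1 had 343 CPM in wildtype ovaries, compared with 432 in the mutant, and did not pass, at 0.33 (SE 0.18, edgeR adjusted p = 0.172). Without wildtype replicate 1 or wildtype replicate 2, 3 genes of this list were lower.

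The 3 PNG kinase genes were all lower in the mutant, against 20.9% of all genes. gnu, which encodes the activating subunit, had 87.1 and 82.9 CPM in wildtype ovaries, compared with 3.35 and 2.76 in mutant ovaries. plu, another subunit, had 21.7 and 16.8 against 2.256 and 2.066, and png, the catalytic one, 11.01 and 6.09 against 2.41 and 1.84. The log2 fold changes were -4.78 (SE 0.17), -3.11 (SE 0.24) and -1.90 (SE 0.36), with edgeR adjusted p-values of 2.56e-05, 1.34e-04 and 0.00482. The value for muskelin, -3.73, lies between those of gnu and plu. Muskelin and this list were picked with earlier results of these data known, so nothing is read from that place.

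**Figure D4:**
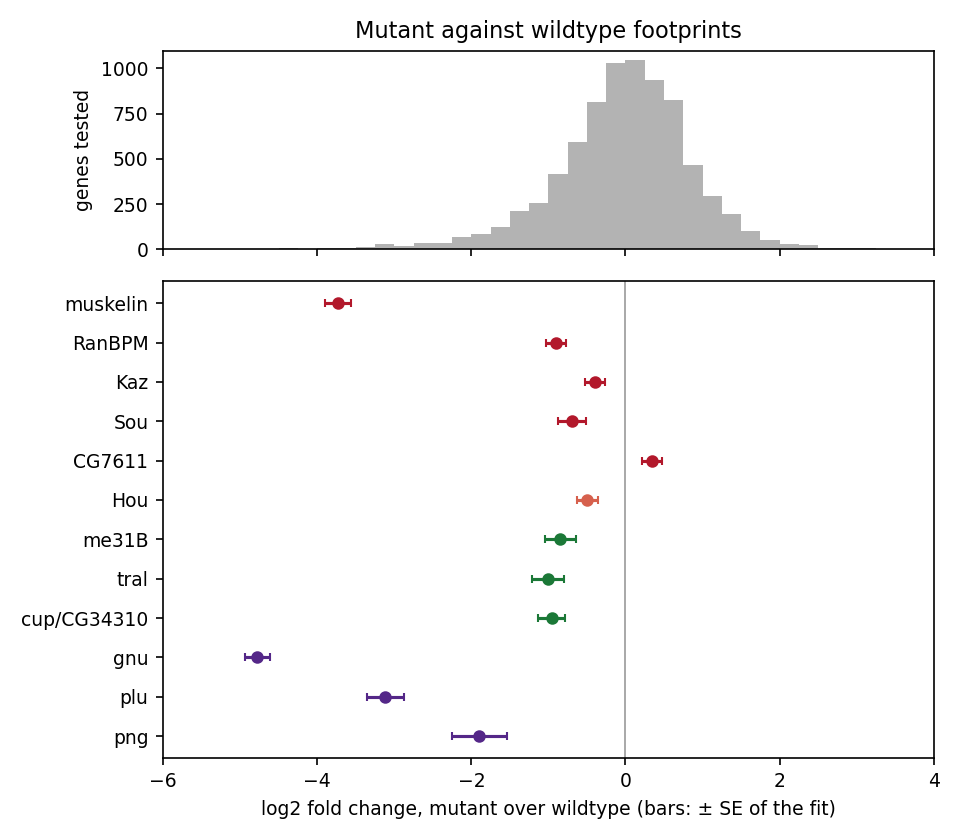
Top, the log2 fold changes of all 7785 genes tested, of which a few lie beyond the axis; bottom, those of the 5 CTLH members, Hou, the 3 targets and the 3 PNG kinase genes, with bars of ± 1 SE. Muskelin at -3.73 lies with gnu and plu in the left tail, while the other CTLH genes lie between -0.90 and 0.34.

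Cullin-RING ligases, among them the SCF ligase that clears the repressor Smaug in the embryo, served as a comparison. Of 19 listed parts, 17 were measured, of which 8 were lower, 2 were higher and 7 did not pass, with a median log2 fold change of -0.41, against the same 20.9% and 20.4% of all genes. The lowest were the F-box gene ago at -1.12 (SE 0.13, edgeR adjusted p = 6.77e-04) and Cul5 at -1.11 (SE 0.15, adjusted p = 0.00123). None was as low as muskelin, but muskelin was singled out on its low value, so nothing is read from that. EloB, an adaptor subunit, was at 0.96 (SE 0.16, edgeR adjusted p = 0.0031) and pic, the DDB1 adaptor of Cul4 ligases, at 0.47 (SE 0.15, adjusted p = 0.0392). The abundant SCF subunit gene SkpA had 85.4 CPM in wildtype ovaries, compared with 96.7 in the mutant, and did not pass, at 0.18 (SE 0.14, edgeR adjusted p = 0.328). The call of pic was lost without wildtype replicate 2 (0.34, edgeR adjusted p = 0.195), mutant replicate 1 (0.42, adjusted p = 0.153) or mutant replicate 2 (0.51, adjusted p = 0.0565). Calls in either direction on this list came to 6 when wildtype replicate 2 was left out and to 5 when mutant replicate 1 was. The 2 listed genes that were not measured, Roc1b and bard, were at 0 counts in every library.

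Genes with a pattern like that of muskelin were sought among 4617 genes with a mean of at least 10 CPM, by the distance between log2 CPM values centred per gene over the 4 libraries. The nearest was CG6927, at a distance of 0.23 log2 units, with 29.8 and 28.6 CPM in wildtype ovaries, compared with 1.56 and 2.41 in mutant ovaries. APC7, a subunit of the anaphase-promoting complex, came next at 0.32, with 40.5 and 44.5 against 3.11 and 2.87 CPM. The amino acid transporter gene slif followed at 0.335, then CG5568 at 0.38 and twe, the Cdc25 phosphatase of meiosis, at 0.40. None of these 5 is in a list of this pathway. The 5 nearest to RanBPM were CG9641, the phosphatase gene mts, Uba2 of the SUMO-activating enzyme, Df31 and CG7694, at distances between 0.039 and 0.072. They are a different set, with log2 fold changes between -0.95 and -0.88. All these distances rest on the same 4 libraries and include the difference between the genotypes.

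Chorion genes, which mark the follicle cells of late egg chambers, were lower in the mutant, although late chambers had been taken out of the control ovaries. All 9 listed were called lower, against 20.9% of all genes, with a median log2 fold change of -2.01, and together they summed to between 4802 and 7097 CPM in wildtype and between 1124 and 1601 CPM in mutant libraries. Cp16 was at -2.76 (SE 0.22, edgeR adjusted p = 1.54e-04) and Cp15 at -3.41 (SE 0.28, adjusted p = 1.76e-04). Markers of follicle cells in general moved the other way: 5 of 6 measured were higher, against 20.4% of all genes. Their sums lay between 163.7 and 168.7 CPM in wildtype and between 338.0 and 359.6 CPM in mutant libraries. Germline markers gave overlapping sums, with 1 of 7 measured higher and 2 lower, against 20.4% and 20.9% of all genes. The sums hide osk, which had 80.97 and 72.54 CPM in wildtype ovaries, compared with 15.95 and 23.07 in mutant ovaries. Its log2 fold change was -1.98. The other lower marker was nanos at -0.46, and the higher one was aub at 0.50. The part of late-chamber content in the muskelin difference was not tested.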

How the data were processed

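Per the file headers, the counts are reads of 25 to 100 nt assigned to whole transcripts 12 nt from the 5' end by counts_in_region, and nothing was masked. The deposited RPKM is the count scaled by transcript length and by all reads of the library, and the deposited coverage signal, not used here, is the count per nucleotide. The build is BDGP6, and DESeq2, bedtools 2.26.0, SAMtools 0.1.19, Bowtie 1.0.0 and TopHat2 2.1.2 are named, per the submitters' processing notes. Their roles are not given in the sources used here.

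Transcripts were tied to RefSeq Release 6 genes by shared ends, splice sites or 80% overlap both ways, which named 34591 of 34729. The unnamed ones, at most 0.0139% of a library's counts, were left out. Genes kept by filterByExpr were tested with edgeR 4.0.16 (R 4.3.3), TMM scaling and genotype as the only term, on counts as deposited. The same functions were tested on simulated data. With 2 libraries a group, the smallest two-sided p an exact permutation test allows is 0.333. Alternatives used DESeq2 1.42.0, other scalings and filters, protein-coding genes only, the longest transcript, thinning, the replicate number as a block, and leaving out each library.

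The members and the lists were chosen with earlier results of these data known. Named genes were the members, Hou, all genes of the lists of targets and PNG kinase, from the other lists up to 2 per direction with the smallest p and 10 CPM and the most abundant one that did not pass, and the 5 genes nearest in pattern to muskelin and to RanBPM. The genes beside muskelin and RanBPM, Roc1b, bard, osk, nanos and aub were chosen after their values were seen. Marker lists for muscle (0 of 6 measured called), fat body (1 higher and 1 lower of 2 measured), haemocytes (0 of 2) and neurons (0 of 1) were also counted. One gene is not reported here.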

Additional observations from a re-analysis of the deposited data

How the results depend on the processing

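Over 13 alternatives muskelin stayed between -3.85 and -3.49 and RanBPM between -0.998 and -0.824 on the log2 scale, both called lower in each, and muskelin had the highest wildtype and the lowest mutant RPKM of the 5 with the longest or shortest transcripts and without any 1 library. The shortest transcript was chosen after seeing the data. All genes called numbered 3217, against 1978 with DESeq2 (844 higher, 1134 lower) and 3854 with the replicate block. The members called lower numbered 4, but 2 with DESeq2, 2 after thinning and 2 to 3 with a library left out. Muskelin minus the median of the other members was -3.18, -2.90 after thinning, and -3.44 to -3.02 with a library left out. For Hou, 1 call became 0 with total count scaling and 0 with DESeq2, and 0 to 1 with a library left out. Of the 3 targets, 1 to 3 were called with a library left out. The cullin list's 10 calls became 6 with total count scaling, 6 with DESeq2, 6 after thinning and 5 to 7 with a library left out. The 5 calls of the repressor partners became 3 with total count scaling and 3 to 4 with a library left out. The gene eff turned to 0.0288 with total count scaling. The causes were not tested, save that thinning and leaving out libraries leave fewer counts.

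Replicate numbers are shared by the groups, but nothing in the labels ties them to a batch, and the correlation of their deviations across genes was 0.25 with only 2 pairs. With the replicate block, 4 members were lower and CG7611 was called higher at 0.34, and it changed no other call of a named gene. The germline markers and the genes beside the members on the chromosome were not followed there. Low counts limit the precision for plu and png, which had 16 to 31 counts in each mutant library.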
